A study of Mus musculus with 86 samples.

Results

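The glucocorticoid receptor gene Nr3c1, the mineralocorticoid receptor gene Nr3c2 and 8 further genes of the stress hormone system were followed through 3 brain regions of wild house mice. The other members were the corticotropin-releasing hormone receptor genes Crhr1 and Crhr2, the corticosterone-regenerating enzyme gene Hsd11b1 and the target genes Fkbp5, Sgk1, Tsc22d3, Zbtb16 and Sult1a1. They were chosen by name, as the rows of the deposited count table whose Ensembl identifiers carried these symbols, which gave 10 of 35275 genes. The choice was made with earlier results of these data known. All 10 passed the filter on low counts in every region, and the lowest count of any member in any library was 26 reads, for Crhr2 in the prefrontal cortex. RNA-seq had been done on the prefrontal cortex, hippocampus and hypothalamus of 29 animals (14 females and 15 males), 1 library for each animal and region. No hypothalamus library of male 18 was analysed here, so that there were 29, 29 and 28 libraries. The study asked how brain gene expression differs between small and large social network sizes, that is, with few or many different partners met in nest boxes a day (gregariousness low or high in the labels). There were 7 females with small, 7 females with large, 8 males with small and 7 males with large social network sizes, and 7 in each group in the hypothalamus.

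All animals were adults of 1 free-living barn population, taken outside the breeding season and killed with CO2 before their frozen brains were punched. They were trapped in their nest boxes around sunrise, the boxes were opened in sequence, and each animal was weighed before death. The time from capture to death of each animal is not given in the sources used here, and its part in the levels was not tested. The groups are the tails of a natural distribution and not the outcome of an intervention, and hormone levels were not part of these data. Replicates were separate animals, and the libraries of 1 animal carried the same number in all regions. Whole tissue was sequenced, so fewer cells of a type and less RNA per cell cannot be told apart in any value given here.

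Corticosterone, the main glucocorticoid of mice, enters cells and binds receptors that move to the nucleus and change the transcription of target genes. The mineralocorticoid receptor binds it with high affinity and is known to be abundant in the hippocampus, whereas the glucocorticoid receptor is widespread and is occupied mainly when the hormone is high. In the brain, receptor activation is known to raise Fkbp5, Sgk1, Tsc22d3, Zbtb16 and further genes in neurons, glia and vessel cells. Fkbp5 in turn encodes a co-chaperone that lowers the receptor's affinity for the hormone. Corticotropin-releasing hormone and the urocortins act above this system, through the receptors encoded by Crhr1 and Crhr2.

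The glucocorticoid receptor binds DNA as a dimer at a palindrome with a spacer of 3 bases, written here as GNACANNNTGTNC (N is any base). The motif reads the same on both strands, so a search of 1 strand covered both, and it overlaps no other motif searched. RefSeq promoters of the build GRCm38.p6 were searched over the 250 bases before each start. Of 27025 genes with such a promoter, 119 (0.44%) held the motif, as did 127 of 32851 promoters (0.387%). Among the members, 8 had a promoter in the table and 1, Sgk1, held the motif, in at least 1 of its 6 promoters. A list of 26 other genes known to be induced by glucocorticoids (Per1, Klf9, Plin4 and others) gave 3 of 24, namely Mt1, Map3k6 and Fam107a. The list was chosen with earlier results of these data known. For each of these 4 genes 1 promoter with a match is shown, beside that of Fkbp5, which held none in this window. These genes return in the comparisons between animals. Capitals mark the motif.
Sgk1: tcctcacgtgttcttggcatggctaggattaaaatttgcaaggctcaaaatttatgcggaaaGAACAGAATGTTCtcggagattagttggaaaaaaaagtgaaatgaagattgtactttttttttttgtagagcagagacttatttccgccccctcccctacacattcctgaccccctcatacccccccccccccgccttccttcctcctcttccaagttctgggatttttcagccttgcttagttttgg
Map3k6: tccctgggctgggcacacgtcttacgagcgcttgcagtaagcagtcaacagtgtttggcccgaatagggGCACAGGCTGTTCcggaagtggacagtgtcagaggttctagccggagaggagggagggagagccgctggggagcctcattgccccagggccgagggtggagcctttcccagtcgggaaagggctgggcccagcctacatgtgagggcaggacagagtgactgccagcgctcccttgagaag
Fam107a: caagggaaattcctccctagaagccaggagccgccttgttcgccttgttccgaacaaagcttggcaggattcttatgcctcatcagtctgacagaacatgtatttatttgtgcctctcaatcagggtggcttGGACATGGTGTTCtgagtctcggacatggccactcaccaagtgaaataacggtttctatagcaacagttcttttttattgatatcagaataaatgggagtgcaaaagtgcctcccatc
Mt1: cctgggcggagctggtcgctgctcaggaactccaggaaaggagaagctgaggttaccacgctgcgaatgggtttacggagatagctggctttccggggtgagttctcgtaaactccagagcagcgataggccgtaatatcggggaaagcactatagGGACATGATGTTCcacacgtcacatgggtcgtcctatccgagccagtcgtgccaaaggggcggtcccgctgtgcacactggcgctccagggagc
Fkbp5: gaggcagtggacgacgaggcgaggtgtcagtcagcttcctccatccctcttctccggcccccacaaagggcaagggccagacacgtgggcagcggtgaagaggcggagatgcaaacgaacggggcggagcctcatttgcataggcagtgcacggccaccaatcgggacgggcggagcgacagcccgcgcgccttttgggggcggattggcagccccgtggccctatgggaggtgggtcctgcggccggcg
The Sgk1 window lay at chr10:21993640-21993889 on the plus strand, with the motif at -188, counted in bases from the start. For Map3k6 it was chr4:133240568-133240817, plus strand, with the motif at -181. The Fam107a window was chr14:8309780-8310029, minus strand, with the motif at -118, and the Mt1 window chr8:94178839-94179088, plus strand, with the motif at -94. The Fkbp5 window was chr17:28486150-28486399, minus strand. A match describes the letters only and is not a measured binding site.

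In the GENCODE vM21 annotation of GRCm38, the members are protein-coding genes on 10 different chromosomes. Nr3c2 spans chr8:76899442-77245012 (plus strand), Crhr1 chr11:104132855-104175523 (plus) and Sgk1 chr10:21882184-21999903 (plus). Fkbp5 spans chr17:28399094-28517527, Tsc22d3 chrX:140539528-140600659, Hsd11b1 chr1:193221634-193264075, Crhr2 chr6:55090049-55133016, Zbtb16 chr9:48654297-48836222 and Sult1a1 chr7:126672865-126676432, all on the minus strand. Nr3c2, Fkbp5, Hsd11b1 and Sult1a1 overlap annotated genes on the opposite strand (for Sult1a1 the gene Sgf29, for Hsd11b1 Lamb3 and 4930570N18Rik). The strand setting of the counting is not given in the sources used here, so reads in those stretches could belong to either gene.

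Counts summed to between 33711824 and 81865801 per library (median 44778419). Levels are given as CPM, that is, counts scaled to a common library total by edgeR's TMM method over all 86 libraries. Marker genes separated the punches only in part. Summed cortex markers lay between 661 and 1012 CPM in the prefrontal cortex and at most 385 CPM elsewhere, and summed hypothalamus markers between 126 and 1438 CPM in the hypothalamus and at most 4.98 CPM in the prefrontal cortex. The sum of 6 hippocampus markers overlapped between regions, with 274 to 366 CPM in the hippocampus and 216 to 409 CPM in the hypothalamus, although 5 of the 6 were called lower in the hypothalamus than in the hippocampus. Libraries that stood apart were the prefrontal cortex of animal 8 (the highest or lowest of its region for 37.8% of genes), the hippocampus of animal 5 (25.6%) and the hypothalamus of animal 10 (35.1%, with hypothalamus markers at 126 CPM against a median of 839 CPM). Without these 3 libraries, every one of the 30 differences of members between regions kept its direction and its side of the threshold.

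The 2 steroid receptor genes were ordered differently across the regions. Nr3c1 was highest in the prefrontal cortex, with a lowest, median and highest level of 123, 148 and 187 CPM, lower in the hippocampus with 92.2, 119.9 and 138 CPM, and lowest in the hypothalamus with 73.6, 96.7 and 130.5 CPM. The ranges overlapped, but within animals the hypothalamus lay below the prefrontal cortex by a log2 fold change of -0.61 ± 0.03 (SE; adjusted p = 2.78e-29, edgeR's quasi-likelihood test with the animal as a block and Benjamini-Hochberg adjustment over 18769 genes, as for all region differences below). Nr3c2 was highest in the hippocampus, with 68.2, 80.4 and 113.0 CPM, against 35.0, 40.6 and 49.6 CPM in the prefrontal cortex and 27.9, 37.5 and 45.4 CPM in the hypothalamus. Every hippocampus library thus held more Nr3c2 than every library of the other regions. The hippocampus exceeded the prefrontal cortex 2.01-fold (log2 fold change 1.01 ± 0.04, adjusted p = 2.43e-32), and the hypothalamus lay below the hippocampus by a log2 fold change of -1.17 ± 0.04 (adjusted p = 6.78e-36). Between hypothalamus and prefrontal cortex, Nr3c2 differed by only -0.16 ± 0.04 (adjusted p = 0.00017).

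**Figure D1:**
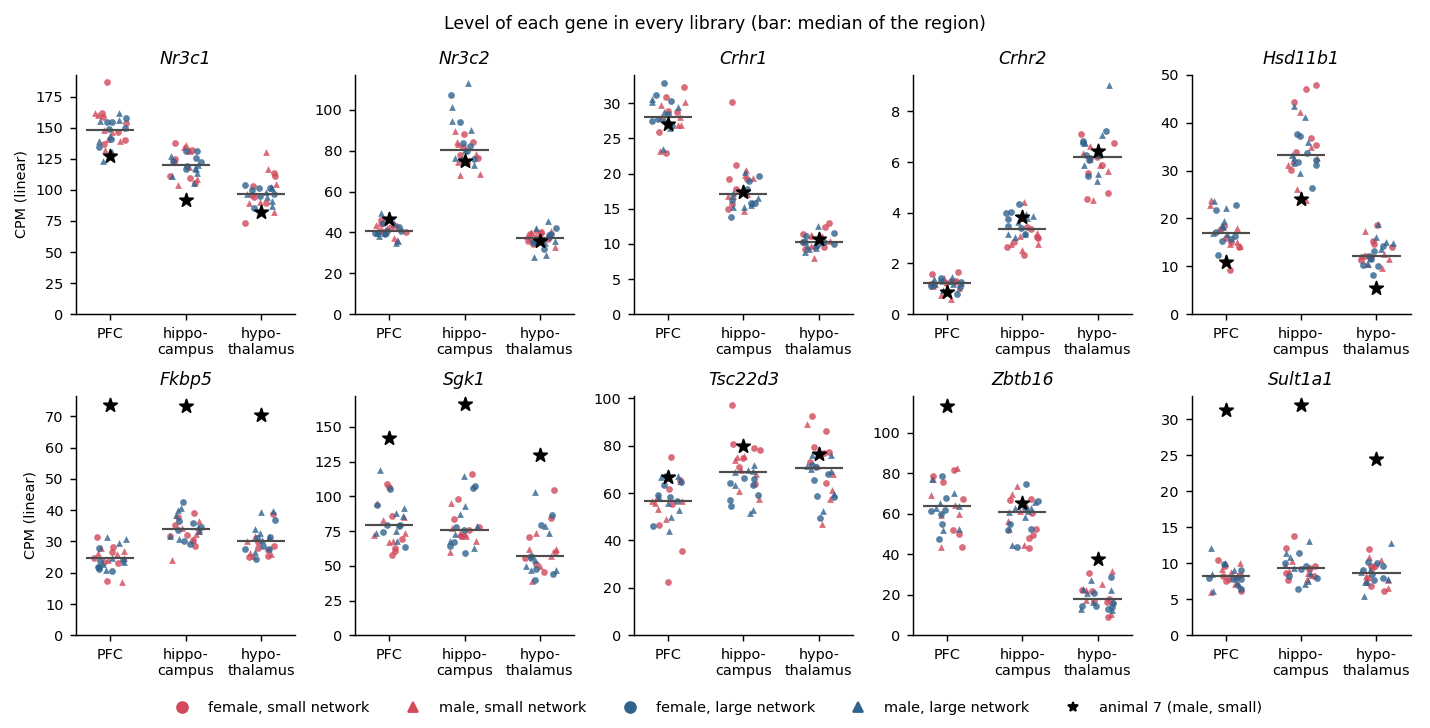
Level of each gene in CPM (linear axis from 0) in every library of the prefrontal cortex (PFC), hippocampus and hypothalamus. Each point is 1 animal, coloured by social network size and shaped by sex, bars are medians of the region, and stars mark animal 7, which is the highest in all 3 regions for Fkbp5, Sgk1 and Sult1a1. Nr3c2 is highest in the hippocampus, and Crhr1 and Crhr2 run in opposite directions.

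The corticotropin-releasing hormone receptors ran in opposite directions. Crhr1, the receptor that corticotropin-releasing hormone itself prefers, was at 22.9, 28.1 and 32.8 CPM (lowest, median and highest) in the prefrontal cortex, 13.8, 17.03 and 30.2 CPM in the hippocampus and 7.98, 10.3 and 12.9 CPM in the hypothalamus. Crhr2, preferred by urocortins, was at 0.618, 1.24 and 1.66 CPM in the prefrontal cortex, 2.35, 3.34 and 4.42 CPM in the hippocampus and 4.50, 6.19 and 9.03 CPM in the hypothalamus. Crhr2 was therefore lowest where Crhr1 was highest, and the 3 ranges of Crhr2 did not overlap. The hypothalamus exceeded the prefrontal cortex 5.06-fold for Crhr2 (log2 fold change 2.34 ± 0.06, adjusted p = 1.21e-41) and was 2.72-fold lower for Crhr1 (-1.45 ± 0.04, adjusted p = 2.44e-40). For Crhr1, hippocampus and prefrontal cortex overlapped through 1 library, the hippocampus of animal 23 at 30.2 CPM, next to which the highest was 21.2 CPM.

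Hsd11b1 encodes the dehydrogenase that regenerates active corticosterone inside cells. Its lowest, median and highest levels were 23.9, 33.2 and 48.0 CPM in the hippocampus, 9.28, 17.1 and 23.8 CPM in the prefrontal cortex and 5.43, 12.2 and 18.9 CPM in the hypothalamus. All hippocampus libraries lay above all others, by 2.03-fold over the prefrontal cortex (log2 fold change 1.02 ± 0.06, adjusted p = 5.22e-23) and 2.76-fold over the hypothalamus (hypothalamus against hippocampus -1.47 ± 0.06, adjusted p = 1.73e-30). Nr3c2 and Hsd11b1 were the only members for which the hippocampus was the highest region without overlap.

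Among the target genes, Zbtb16 differed most between regions. Zbtb16, a zinc finger transcription factor, was at 9.15, 17.8 and 37.8 CPM in the hypothalamus (lowest, median and highest) against 43.0, 60.6 and 74.9 CPM in the hippocampus and 43.4, 63.6 and 113.1 CPM in the prefrontal cortex. The hypothalamus lay below both without overlap, 3.40-fold below the prefrontal cortex (log2 fold change -1.77 ± 0.06, adjusted p = 8.05e-38) and 3.10-fold below the hippocampus (-1.63 ± 0.06, adjusted p = 1.66e-35). Fkbp5 had medians of 24.6, 34.0 and 30.03 CPM in the prefrontal cortex, hippocampus and hypothalamus, and the hippocampus exceeded the prefrontal cortex by 0.45 ± 0.03 (adjusted p = 4.50e-20). Sgk1, a kinase that acts on ion transport, had medians of 79.6, 75.6 and 57.1 CPM. It was lower in the hypothalamus than in the prefrontal cortex (-0.41 ± 0.04, adjusted p = 4.36e-14), while hippocampus and prefrontal cortex were not told apart (-0.004 ± 0.040, adjusted p = 0.928). Tsc22d3, which encodes a leucine zipper protein that mediates anti-inflammatory actions of glucocorticoids, had medians of 56.7, 69.0 and 70.7 CPM. It was higher in the hypothalamus than in the prefrontal cortex (0.29 ± 0.06, adjusted p = 3.08e-06), and hypothalamus and hippocampus were not told apart (0.003 ± 0.055, adjusted p = 0.962). Sult1a1, a sulfotransferase of phenols, was close to even, with medians of 8.18, 9.36 and 8.64 CPM and no called difference between hypothalamus and prefrontal cortex (0.05 ± 0.05, adjusted p = 0.376).

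In all, the fit called 3 members higher and 6 lower in the hypothalamus than in the prefrontal cortex, where 42.2% of all genes tested were called higher and 39.1% lower. Between hypothalamus and hippocampus, 1 member was called higher and 8 lower (all genes 36.8% and 39.5%). In the hippocampus against the prefrontal cortex, 6 were called higher and 3 lower (all genes 38.8% and 33.3%). Since most genes differed between regions, a call says little about a member, and the sizes carry the description. Cell type markers also differed. In the hypothalamus against the prefrontal cortex, markers called higher were 5 of 5 of the striatum (median log2 fold change 2.20), 5 of 6 of the choroid plexus (1.97), 5 of 5 of the thalamus (1.89), 6 of 6 of oligodendrocytes (0.66) and 5 of 6 of astrocytes (0.30), and markers called lower were 4 of 4 of blood (-0.84), 5 of 5 of endothelium (-0.30) and 4 of 5 of microglia (-0.20). Against the hippocampus, the hypothalamus was higher for 5 of 5 striatum markers (2.42) and lower for 5 of 6 choroid plexus markers (-2.61). In the hippocampus against the prefrontal cortex, 6 of 6 choroid plexus (4.33), 5 of 5 thalamus (2.32) and 6 of 6 oligodendrocyte markers (0.75) were higher. The part of these in the members' differences was not tested. The median log2 fold change of the 10 members was -0.29, -0.36 and 0.24 in these comparisons, against 0.02, -0.01 and 0.02 over all genes. These 3 comparisons share libraries. Without the animal as a block, 4 of the smaller differences were not called, namely Fkbp5 (-0.17, adjusted p = 0.0816) and Sult1a1 (-0.15, adjusted p = 0.266) in the hypothalamus against the hippocampus and Zbtb16 (-0.15, adjusted p = 0.139) and Sult1a1 (0.18, adjusted p = 0.201) in the hippocampus against the prefrontal cortex.

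**Figure D2:**
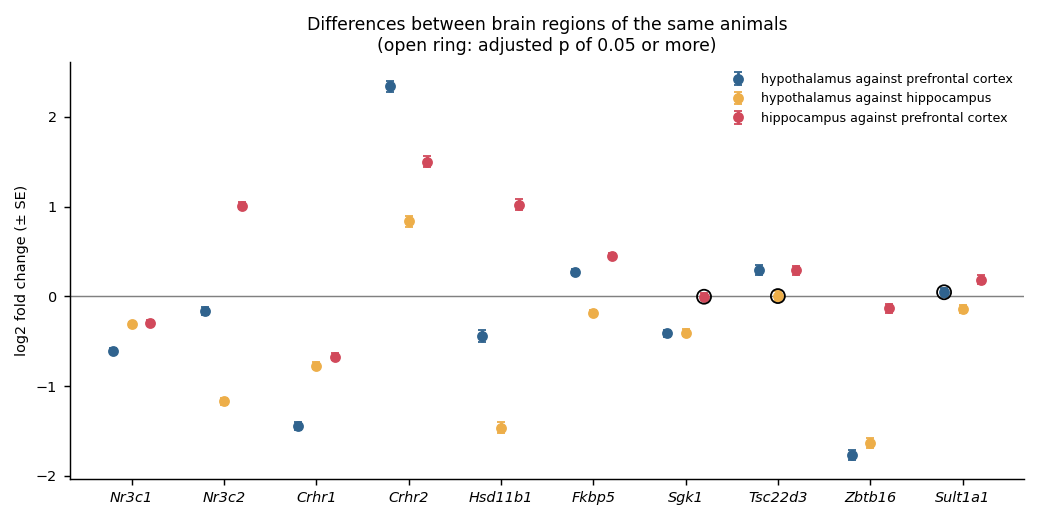
Log2 fold change between regions for each gene, with its standard error, from 1 fit over 86 libraries with the animal as a block. Open rings mark the 3 differences with an adjusted p of 0.05 or more (Sgk1, Tsc22d3 and Sult1a1, 1 comparison each). Zbtb16 falls to -1.77 in the hypothalamus against the prefrontal cortex and Crhr2 rises to 2.34.

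Levels of different genes were compared per kilobase of exon (CPM per kb). In the prefrontal cortex, the order of the means ran from Nr3c1 (19.3 ± 1.73, SD, n = 29) and Sgk1 (16.97 ± 3.89) over Tsc22d3, Zbtb16 and Crhr1 to Fkbp5 (2.79 ± 1.04) and Crhr2 (0.234 ± 0.0457). In the hippocampus, Sgk1 (16.98 ± 4.57), Tsc22d3 (15.8 ± 2.27) and Nr3c1 (15.6 ± 1.45) lay within 1 SD of each other, and Nr3c2 followed with 12.8 ± 1.67 CPM per kb. Both receptor genes were thus nearest to each other in the hippocampus, whereas Nr3c1 was well above Nr3c2 in the prefrontal cortex (19.3 against 6.39 ± 0.509) and the hypothalamus (12.7 ± 1.52 against 5.74 ± 0.603). In the hypothalamus, Tsc22d3 led with 15.95 ± 2.57 CPM per kb. Crhr2 was the lowest member in every region.

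Among animals, Nr3c1 varied less than the median gene, and Fkbp5, Sgk1, Sult1a1, Zbtb16, Tsc22d3, Hsd11b1 and Crhr2 varied more in every region. The coefficient of variation of Nr3c1 was 8.97%, 9.28% and 11.96% in the prefrontal cortex, hippocampus and hypothalamus, below the median of all genes (14.3%, 12.7% and 13.6%). For Fkbp5 it was 37.2%, 23.6% and 27.7%, for Sgk1 22.9%, 26.9% and 33.7%, and for Sult1a1 49.5%, 44.3% and 37.2%. For Zbtb16 it was 22.2%, 15.3% and 34.8%, for Tsc22d3 18.9%, 14.4% and 16.1%, and for Crhr2 19.5%, 15.95% and 14.9%. Nr3c2 (7.97%, 13.1% and 10.5%) and Crhr1 (8.71%, 17.5% and 10.9%) lay above the median gene in the hippocampus only. Animal 7, described below, held the highest Fkbp5, Sgk1 and Sult1a1 in every region.

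The libraries of the regions of 1 animal were prepared separately, which allowed a test of whether animals kept their rank from region to region. For every gene, Pearson's r of log2 CPM was computed across animals between 2 regions and its p adjusted over all genes. The median r of all genes was 0.33, 0.34 and 0.31 for hypothalamus and prefrontal cortex, hypothalamus and hippocampus, and hippocampus and prefrontal cortex. In these pairs, 4, 7 and 4 of the 10 members had an r above 0 with an adjusted p under 0.05, where 30.5%, 34.1% and 30.6% of all genes did. Fkbp5, Sgk1, Zbtb16 and Sult1a1 passed in all 3 pairs. Nr3c1, Tsc22d3 and Hsd11b1 passed between hypothalamus and hippocampus only, although the difference between pairs was not tested. The receptor genes Nr3c2, Crhr1 and Crhr2 passed in none. The members were chosen with earlier results of these data known, so their p-values in this and the following paragraphs are descriptions.

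**Figure D3:**
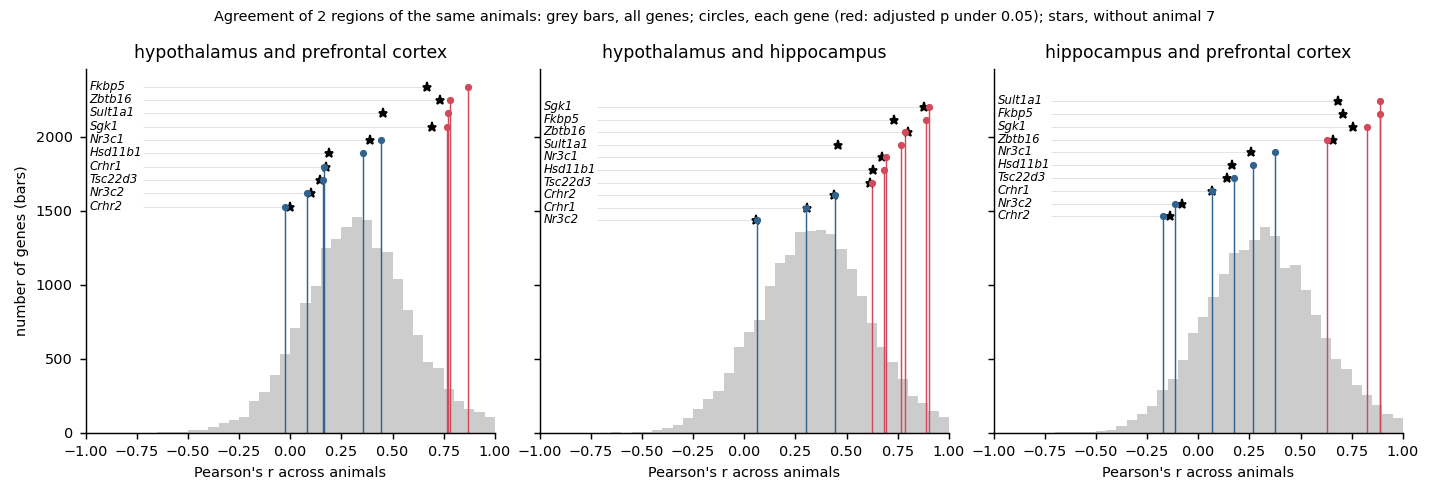
Pearson's r of log2 CPM across animals between 2 regions of the same animals. Grey bars count all genes (bins of r), circles with lines give the 10 genes (red where the adjusted p is under 0.05), and stars give r without animal 7. Fkbp5, Sgk1, Zbtb16 and Sult1a1 lie at the right end in all 3 panels, whereas Nr3c2, Crhr1 and Crhr2 lie at or below the bulk of genes in most.

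For Fkbp5, r was 0.870 between hypothalamus and prefrontal cortex (Spearman's rho 0.620, adjusted p = 9.85e-08), 0.888 between hypothalamus and hippocampus (rho 0.803, adjusted p = 1.89e-08) and 0.886 between hippocampus and prefrontal cortex (rho 0.657, adjusted p = 1.13e-08). The permutation p of each of these r was 1e-05, the smallest that 100000 permutations can give, and that of rho 0.00057, 1e-05 and 0.00025. Animal 7 held the highest Fkbp5 in every region, and r was lower without it, at 0.669, 0.730 and 0.708, with adjusted p of 0.00152, 0.000234 and 0.00035. Without the 2 animals farthest from the median of the first region, r was 0.628, 0.723 and 0.615. The agreement of Fkbp5 thus held among the other animals, at a lower r. In females alone (14 animals), r was 0.597, 0.670 and 0.565 and was not called in any pair (adjusted p = 0.120, 0.0540 and 0.149).

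For Sgk1, r was 0.903 between hypothalamus and hippocampus (rho 0.869, adjusted p = 3.77e-09), 0.825 between hippocampus and prefrontal cortex (rho 0.700, adjusted p = 1.29e-06) and 0.767 between hypothalamus and prefrontal cortex (rho 0.679, adjusted p = 4.27e-05). Permutation p were 1e-05, 1e-05 and 3e-05 for r and 1e-05, 5e-05 and 0.00011 for rho. Without animal 7, r was 0.877, 0.756 and 0.694, and it was 0.883, 0.727 and 0.651 without the 2 farthest animals. Animals thus kept their Sgk1 rank also without the highest of them. Between hypothalamus and hippocampus without animal 7, only 1.85% of all genes had an r as high as that of Sgk1.

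For Zbtb16, r was 0.783, 0.785 and 0.631 in the order of hypothalamus with prefrontal cortex, hypothalamus with hippocampus, and hippocampus with prefrontal cortex (rho 0.743, 0.796 and 0.641; adjusted p = 2.17e-05, 1.75e-05 and 0.00206). The permutation p were 1e-05, 1e-05 and 0.00029 for r and 5e-05, 1e-05 and 0.00018 for rho. Animal 7 moved these values little, with r of 0.735, 0.802 and 0.657 without it, and r was 0.684, 0.768 and 0.607 without the 2 farthest animals. Sult1a1 rested more on animal 7. Its r of 0.770, 0.764 and 0.890 in the same order (rho 0.475, 0.539 and 0.744; adjusted p = 3.84e-05, 4.25e-05 and 7.37e-09; permutation p = 0.00038, 0.00033 and 1e-05 for r and 0.0119, 0.00366 and 2e-05 for rho) fell to 0.452, 0.461 and 0.681 without that animal. The adjusted p were then 0.0592, 0.0485 and 0.000756, so that the call between hypothalamus and prefrontal cortex was lost. Without the 2 farthest animals, its r was 0.528, 0.478 and 0.648.

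Nr3c1 agreed between hypothalamus and hippocampus (r = 0.694, rho 0.724, permutation p = 3e-05 for both, adjusted p = 0.000487; 0.693 without the 2 farthest animals). In the pairs with the prefrontal cortex, its r was 0.443 (rho 0.538, adjusted p = 0.0566) and 0.375 (rho 0.431, adjusted p = 0.112), which missed the threshold. Those values depended on animal 8, whose prefrontal cortex held the highest Nr3c1 (187 CPM) and stood apart for many genes. Without animal 8, they were 0.554 (adjusted p = 0.0126) and 0.532 (adjusted p = 0.0159), and leaving out animal 6, 16, 22 or 29 also brought the first pair past the threshold. Without animal 7, they were 0.391 and 0.260. Tsc22d3 agreed between hypothalamus and hippocampus (r = 0.623, rho 0.646, permutation p = 0.00039 and 0.00035, adjusted p = 0.00291; 0.758 without the 2 farthest animals). With the prefrontal cortex its r was 0.162 (hypothalamus) and 0.173 (hippocampus). Without animal 8, whose prefrontal cortex held the lowest Tsc22d3, these were 0.447 (adjusted p = 0.0541) and 0.326, and after centring on the mean of each group of sex and social network size they were 0.393 and 0.473 (adjusted p = 0.128 and 0.051). Hsd11b1 also agreed between hypothalamus and hippocampus (r = 0.685, rho 0.659, permutation p = 4e-05 and 0.00021, adjusted p = 0.000628; 0.589 without the 2 farthest animals). Its r with the prefrontal cortex was 0.357 and 0.270, without animal 23 it was 0.502 (adjusted p = 0.032) and 0.480 (adjusted p = 0.0358), and without animal 7 it was 0.189 and 0.166. For Crhr1, r was 0.167, 0.304 and 0.0688, for Nr3c2 0.0801, 0.0637 and -0.114, and for Crhr2 -0.0238, 0.444 (adjusted p = 0.0519) and -0.173 in the order used for Zbtb16. The value of 0.444 was called when any of 8 animals (2, 4, 6, 10, 13, 22, 26 or 28) was left out.

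**Figure D4:**
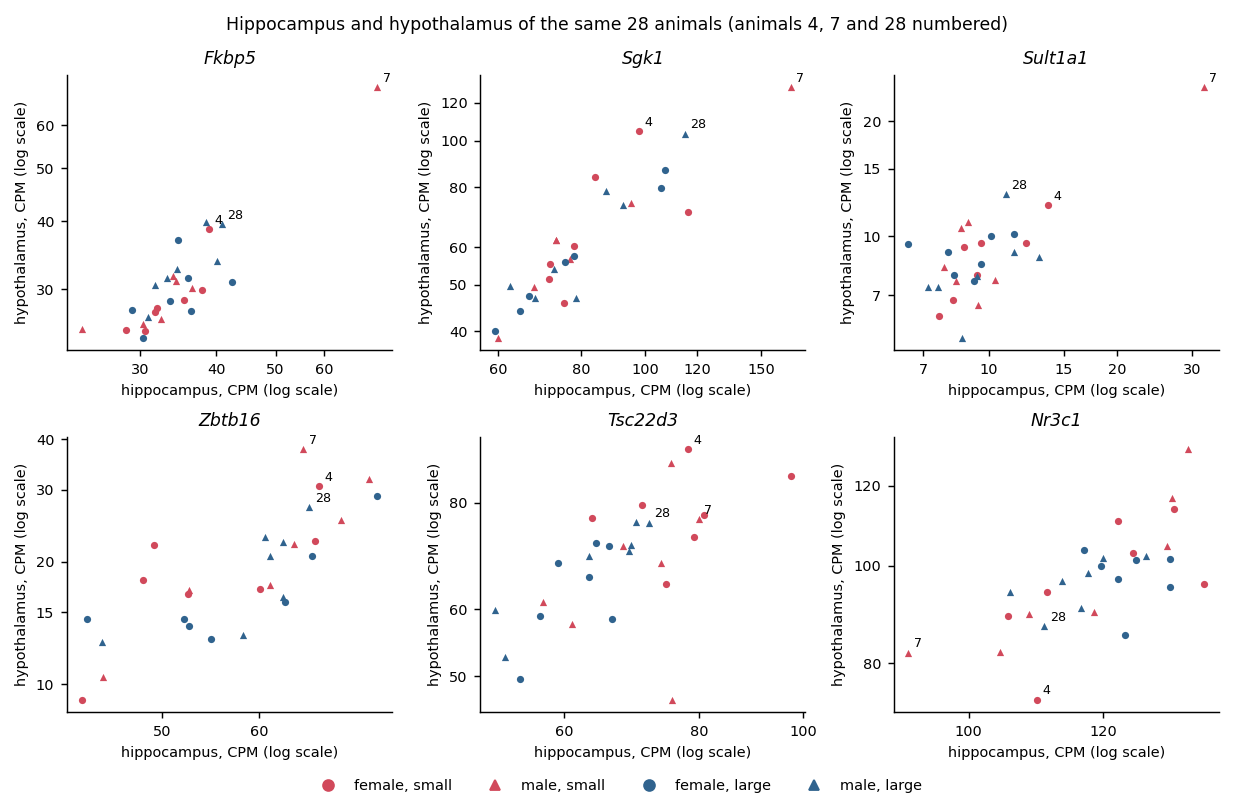
Hippocampus against hypothalamus level (CPM, both axes logarithmic) of 6 genes in the 28 animals with both libraries, coloured by social network size and shaped by sex. Animals 4, 7 and 28 are numbered. Animal 7 (male, small) stands alone at the top for Fkbp5 (73.3 and 70.4 CPM) and Sult1a1 (31.97 and 24.5 CPM), and lies at the low end for Nr3c1.

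Animal 7, a male with a small social network size, held the highest level of Fkbp5, Sgk1 and Sult1a1 in all 3 regions. Its Fkbp5 was 73.8 CPM in the prefrontal cortex, 73.3 CPM in the hippocampus and 70.4 CPM in the hypothalamus, 3.03, 2.17 and 2.36 times the median of the other animals (24.4, 33.8 and 29.9 CPM). The next highest animals had 31.6 CPM (animal 28), 42.5 CPM (animal 19) and 39.9 CPM (animal 30). Sgk1 was 142, 166 and 129.5 CPM in animal 7, with next values of 119.0 CPM (animal 28), 116.0 CPM (animal 27) and 105 CPM (animal 4). Sult1a1 was 31.2, 31.97 and 24.5 CPM, where the others reached at most 12.1, 13.8 and 12.9 CPM. Zbtb16 of animal 7 was the highest in the prefrontal cortex (113.1 CPM) and hypothalamus (37.8 CPM) and ranked 8 of 29 in the hippocampus (65.2 CPM).

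At the other end, animal 7 was among the lowest for the receptor and the enzyme. Its Nr3c1 ranked 28 of 29 in the prefrontal cortex (128 CPM), 29 of 29 in the hippocampus (92.2 CPM) and 27 of 28 in the hypothalamus (82.0 CPM). Hsd11b1 ranked 27, 28 and 28 (10.97, 24.1 and 5.43 CPM). Its Tsc22d3 ranked 4, 3 and 7 and was not apart from the others. Of the 26 other glucocorticoid-induced genes, 12, 18 and 14 were highest in animal 7 in the prefrontal cortex, hippocampus and hypothalamus, where 7.03%, 6.73% and 5.15% of all genes were. That list was chosen with earlier results of these data known, so its counts are descriptions. Plin4, a lipid droplet protein, was at 36.9, 44.0 and 45.3 CPM against medians of the others of 5.08, 7.34 and 8.59 CPM. Fam107a, an actin-associated protein gene that stress is known to raise, was at 717, 636 and 474 CPM, against 309, 253 and 208 CPM. None of the 10 receptor chaperone genes was highest in animal 7 in any region. With shares of all genes of 7.03%, 6.73% and 5.15%, this is ordinary for 10 genes and says little about them.

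Other measures also moved in animal 7. Summed blood markers (mostly hemoglobin genes) were at 693, 392 and 384 CPM in its prefrontal cortex, hippocampus and hypothalamus, against medians of 334, 198 and 195 CPM over all animals. Its summed endothelial markers ranked 1, 2 and 3. Its summed oligodendrocyte markers ranked 27, 24 and 26 of 29, 29 and 28 libraries, and its astrocyte markers 28, 18 and 25. Its hippocampus library held the highest hypothalamus markers, 81.3 CPM against a median of 4.94 CPM, and the highest striatum markers, and its prefrontal cortex the highest cortex markers. The part of these in its target gene levels was not tested. Animals 4 (female, small) and 28 (male, large) were often next in rank. Animal 28 had the highest Depp1, a gene chosen by its likeness to Sgk1, with 11.5, 10.1 and 7.23 CPM in the 3 regions, against 5.37, 4.05 and 3.14 CPM in animal 7.

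The genes with the pattern most like that of 3 targets were sought over all 86 libraries, as Pearson's r of log2 CPM after subtracting the mean of each region, among 17824 genes. For Fkbp5 these were Plin4 (0.848), Map3k6 (0.845), Hif3a (0.814), Sult1a1 (0.803) and Sun2 (0.702). Without animal 7, Plin4 (0.739), Hif3a (0.738) and Map3k6 (0.688) remained the first 3, followed by Paqr5 and Acer2. For Sgk1 they were Nfkbia (0.819), Ddit4 (0.749), Rhou (0.719), Depp1 (0.712) and Prodh (0.703), and without animal 7 the first 2 were again Nfkbia (0.783) and Ddit4 (0.691). For Tsc22d3 they were Fbxo9 (0.732), Polr2h, Gpr61, F3 and Pigc (0.708), none of them in the lists of stress genes. The median r of the 26 other glucocorticoid-induced genes was 0.42 with Fkbp5, 0.50 with Sgk1 and 0.28 with Tsc22d3 (0.22, 0.38 and 0.23 without animal 7), against about 0 over all genes (-0.005, 0.012 and 0.010). Libraries of 1 animal are not independent, and the list was chosen with earlier results of these data known, so these values are descriptions.

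Within each region, the 45 pairs of members gave 135 relations across animals. With both r and rho past an adjusted p of 0.05 over these, 8 relations remained. The share of other gene pairs that would pass in these libraries was not computed, so the count is a description. In the prefrontal cortex, Fkbp5 rose with Zbtb16 (r = 0.732, permutation p = 1e-05, adjusted p = 0.00045; rho 0.637, permutation p = 0.00033) and with Sult1a1 (r = 0.866, permutation p = 1e-05; rho 0.549, permutation p = 0.00227), and without animal 7 these r were 0.620 and 0.604. Sgk1 rose with Sult1a1 there (r = 0.786, permutation p = 1e-05; rho 0.742, permutation p = 2e-05; 0.763 without animal 7). Sgk1 and Tsc22d3 rose together in the prefrontal cortex (r = 0.657, permutation p = 0.00022; rho 0.720, permutation p = 1e-05) and in the hypothalamus (r = 0.652, permutation p = 0.00025; rho 0.672, permutation p = 0.00021). Hsd11b1 fell as Fkbp5 rose in the hippocampus (r = -0.567, permutation p = 0.00072; rho -0.562, permutation p = 0.00171), Crhr1 fell as Nr3c2 rose there (r = -0.534, permutation p = 0.00345; rho -0.61, permutation p = 0.00056), and Sult1a1 fell as Nr3c1 rose in the hypothalamus (r = -0.543, permutation p = 0.00433; rho -0.578, permutation p = 0.00172). Without the 2 farthest animals, r was 0.539, 0.536, 0.709, 0.675, 0.619, -0.431, -0.448 and -0.546 in the order given. Adjusted p ran from 0.00045 to 0.0292 for r.

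The members were also set against the summed levels of 12 marker lists, 360 relations in all. How often other genes would pass with these sums was not computed. Past an adjusted p of 0.05 for both r and rho were Zbtb16 with cortex markers in the prefrontal cortex (r = 0.747, permutation p = 1e-05; rho 0.701, permutation p = 5e-05; 0.644 without the 2 farthest animals; adjusted p = 0.0012 for r), Hsd11b1 with oligodendrocyte markers in the hypothalamus (r = 0.700, permutation p = 1e-05; rho 0.643, permutation p = 0.00028; 0.633 without the 2 farthest; adjusted p = 0.0012 for r) and Sgk1 with microglia markers in the prefrontal cortex (r = -0.601, permutation p = 0.00063; rho -0.621, permutation p = 0.00044; -0.492 without the 2 farthest; adjusted p = 0.0378 for r). These marker sums thus moved with these members among animals. The part of the makeup of the punches in the agreement between regions was not tested.

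Agreement between regions was also counted in the other lists, beside the 30.5%, 34.1% and 30.6% of all genes called in the 3 pairs. These lists were chosen with earlier results of these data known, so their counts are descriptions. Of the other glucocorticoid-induced genes, between hypothalamus and prefrontal cortex 22 of 26 were called, between hypothalamus and hippocampus 23, and between hippocampus and prefrontal cortex 23, with a median r of 0.695, 0.849 and 0.786 against 0.33, 0.34 and 0.31 over all genes. Without animal 7, the counts were 20, 22 and 20 (all genes 28.2%, 32.3% and 28.3%) and the medians 0.626, 0.755 and 0.724. Hif3a, a hypoxia-inducible factor, had r of 0.949, 0.933 and 0.923, and Plin4 0.923, 0.967 and 0.897. The clock gene Per1 was among the first 5 between hippocampus and prefrontal cortex (0.911). Of the 10 chaperones that fold or ripen the receptor, 8, 9 and 4 were called, led by Dnajb1 (0.785, 0.924 and 0.880). Of the 8 receptor coregulators, 2, 5 and 3 were called, in the first pair close to the share of all genes. Among the stress axis peptides and steroid enzymes that were expressed, 1 of 8, 2 of 9 and 3 of 8 were called with r above 0, Abcb1a, a transporter that carries steroids out of the brain, in each pair (0.661, 0.628 and 0.660). Avp, vasopressin, had an r below 0 between hypothalamus and prefrontal cortex (-0.486, adjusted p = 0.0332). Its level in the prefrontal cortex was low, at 0.886 ± 0.662 CPM (mean ± SD).

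The same lists also held genes that differed between regions, as most genes did. Of all genes, 42.2% were called higher and 39.1% lower in the hypothalamus than in the prefrontal cortex. The shares were 36.8% and 39.5% against the hippocampus, and 38.8% and 33.3% in the hippocampus against the prefrontal cortex. A count of a list near these shares says little about the list. In the hypothalamus, 9 of 26 other glucocorticoid-induced genes were called higher and 15 lower than in the prefrontal cortex, 5 higher and 18 lower than in the hippocampus, and 13 were called higher and 8 lower in the hippocampus than in the prefrontal cortex. Klf9, a transcription factor gene, was lowest in the hypothalamus (log2 fold change -1.11 ± 0.03 against the prefrontal cortex and -0.81 ± 0.03 against the hippocampus), whereas Gjb6, a gap junction gene of astrocytes, was highest there (0.58 ± 0.03 and 0.39 ± 0.03). Of 8 coregulators, 7 were lower and 0 higher in the hippocampus than in the prefrontal cortex, and 6 were lower and 1 higher in the hypothalamus than in the prefrontal cortex, among the lower ones Ncor1 (-0.53 ± 0.03) and Ncoa1 (-0.46 ± 0.02). Of the 10 chaperones, 5 were higher and 4 lower in that comparison, with Fkbp4 at 0.34 ± 0.03. Of the stress axis genes, 6 of 10 tested were higher and 3 lower in the hypothalamus than in the prefrontal cortex, with Avp at 8.92 ± 0.36 and Ucn3, a ligand of the receptor encoded by Crhr2, at 7.48 ± 0.26. Avp and Ucn3 had low means of 0.886 and 0.0125 CPM in the prefrontal cortex, against 453 and 2.75 CPM in the hypothalamus. Crhbp, which binds corticotropin-releasing hormone, was lower in the hypothalamus than in both other regions (-0.96 ± 0.05 and -1.18 ± 0.05), and Crh itself was higher there than in the hippocampus (1.30 ± 0.07). The median log2 fold change of the stress axis genes was 0.71, 1.22 and 0.04 in the hypothalamus against the prefrontal cortex, the hypothalamus against the hippocampus and the hippocampus against the prefrontal cortex, where that of all genes was 0.02, -0.01 and 0.02. The likeness of a list to all genes was not tested.

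Between small and large social network sizes, no member was called in either sex or any region. Of all genes tested, 0.0113%, 0.0% and 0.00552% were called in females and 0.0%, 0.0% and 0.0% in males, in the prefrontal cortex, hippocampus and hypothalamus. At an unadjusted p under 0.05, the shares were 9.59%, 12.2% and 7.39% in females and 2.52%, 3.88% and 2.9% in males. Of the 10 members, 0, 3 and 2 had such a p in females and 0, 1 and 0 in males. The log2 fold changes of members (small minus large) reached at most 0.37 in size, with standard errors between 0.05 and 0.30. None of these was called with these groups, so a missing call does not exclude changes of that size.

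**Figure D5:**
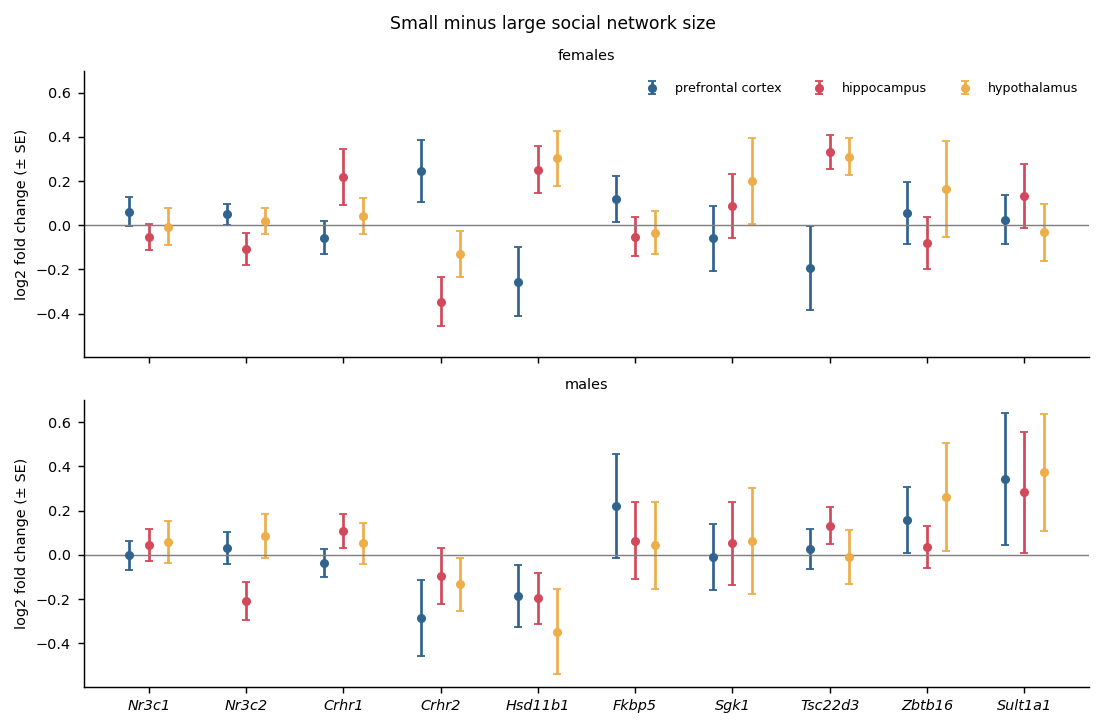
Log2 fold change (small minus large social network size) of each gene with its standard error, in females (top) and males (bottom), for the 3 regions. No value has an adjusted p under 0.05. Tsc22d3 of females lies at 0.33 in the hippocampus and 0.31 in the hypothalamus, and Sult1a1 of males has the widest errors.

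In females, Tsc22d3 was higher in the hippocampus of animals with small social network sizes, with a lowest, median and highest level of 63.7, 78.1 and 97.4 CPM against 54.6, 63.2 and 66.5 CPM. In the hypothalamus the levels were 64.1, 77.4 and 92.6 CPM against 49.7, 65.4 and 71.7 CPM. The groups overlapped in both regions. The log2 fold change was 0.33 ± 0.08 in the hippocampus (p = 0.000541, adjusted p = 0.249; two-sided exact permutation test of the means, p = 0.00233, n = 7 and 7) and 0.31 ± 0.09 in the hypothalamus (p = 0.00204, adjusted p = 0.483; exact p = 0.00583). The Wald test of DESeq2 called the hippocampus value (adjusted p = 0.0248), and over all alternatives its adjusted p ran from 0.0248 to 0.393. The prefrontal cortex went the other way, 51.8 ± 18.3 against 59.4 ± 6.97 CPM (mean ± SD), with the lowest level in animal 8 (22.5 CPM), whose library stood apart. Marker lists moved in the same comparisons. In the hippocampus 4 of 6 astrocyte markers and 3 of 5 thalamus markers had an unadjusted p under 0.05 (list medians 0.18 and 0.41, small minus large), and in the hypothalamus 3 of 6 astrocyte and 3 of 6 oligodendrocyte markers did (0.15 and 0.28). Their part in the Tsc22d3 difference was not tested.

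Other members with an unadjusted p under 0.05 in females were Crhr2 in the hippocampus, with 2.35, 3.01 and 3.45 CPM in animals with small against 3.18, 3.77 and 4.35 CPM in animals with large social network sizes (log2 fold change -0.35 ± 0.11, p = 0.00644; exact permutation p = 0.0035). Hsd11b1 had 0.25 ± 0.11 in the hippocampus (p = 0.0307, exact p = 0.0653) and 0.30 ± 0.12 in the hypothalamus (p = 0.0272, exact p = 0.0495). In males, only Nr3c2 in the hippocampus did, with 68.2, 76.9 and 89.7 CPM against 72.8, 90.4 and 113.0 CPM (-0.21 ± 0.09, p = 0.0258, exact p = 0.057). All of these groups overlapped. Of 60 exact tests of single members, 4 gave a p under 0.05, and the smallest value after adjustment over the 60 was 0.105. The smallest p that these tests allow is 0.000583 for 7 against 7 animals and 0.000155 for 8 against 7.

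In males, the values of Fkbp5, Sgk1 and Sult1a1 were lower without animal 7. With it, Fkbp5 had log2 fold changes of 0.22, 0.06 and 0.04 and Sult1a1 0.34, 0.28 and 0.37 in the prefrontal cortex, hippocampus and hypothalamus. Without it, Fkbp5 was at -0.10, -0.15 and -0.23 (unadjusted p = 0.028 in the hypothalamus, adjusted p = 1.0) and Sult1a1 at -0.09, -0.11 and 0.04. Sgk1 moved from -0.01, 0.05 and 0.06 to -0.15, -0.16 and -0.17. Leaving out this animal thus turned the direction of Fkbp5 in all 3 regions and of Sgk1 and Sult1a1 in 2 each, and no value was called either way. Values near 0 also turned without other single animals. Sgk1 did so in the prefrontal cortex without animal 6, 10, 16, 18, 20 or 28. It also turned in the hippocampus without animal 29 and in the hypothalamus without animal 11 or 22. Fkbp5 turned in the hypothalamus without animal 22.

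The difference between the sexes in the effect of social network size was tested directly and no member was called. Of all genes, 0.0%, 0.0% and 0.0% were called, and 4.17%, 7.37% and 6.14% had an unadjusted p under 0.05 in the prefrontal cortex, hippocampus and hypothalamus. Members with an unadjusted p under 0.05 were Crhr2 in the prefrontal cortex (female minus male effect 0.53 ± 0.21, adjusted p = 0.997), Hsd11b1 in the hippocampus (0.45 ± 0.17, adjusted p = 0.641) and hypothalamus (0.65 ± 0.24, adjusted p = 0.775) and Tsc22d3 in the hypothalamus (0.32 ± 0.15, adjusted p = 0.787). For Hsd11b1, females had values above 0 and males values below 0 in both regions (males -0.20 ± 0.12 and -0.35 ± 0.19, and without animal 7 -0.15 and -0.23). In the same test of the difference between the sexes, 6 of 6 astrocyte markers lay above 0 in the hippocampus (median 0.33, 4 at an unadjusted p under 0.05) and 6 of 6 oligodendrocyte markers in the hypothalamus (median 0.22, 0 at such a p). Their part in the Hsd11b1 values was not tested.

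No member was called between females and males. Of all genes, 0.0976%, 0.102% and 0.117% were called (18, 19 and 22 genes), and 4.98%, 5.99% and 6.79% had an unadjusted p under 0.05, where 0 of 10 members did in each region. Nr3c1 was at 151.8 ± 13.2 CPM in 14 females and 144.5 ± 12.8 CPM in 15 males in the prefrontal cortex, at 122 ± 9.27 and 118 ± 12.6 CPM in the hippocampus and at 97.4 ± 10.2 and 97.6 ± 13.4 CPM in the hypothalamus. Fkbp5 was at 24.02 ± 3.60 CPM in females and 28.7 ± 13.04 CPM in males in the prefrontal cortex (log2 fold change -0.24 ± 0.14, adjusted p = 0.999), a male mean that includes animal 7.

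Among the other glucocorticoid-induced genes, 0 of 26 were called by edgeR in any comparison of social network size or sex. In females, 23 of 26 had a log2 fold change above 0 in the hippocampus (median 0.12, all genes 0.01) and 21 of 26 in the hypothalamus (median 0.07, all genes -0.003). An unadjusted p under 0.05 was found for 7 and 3 of them, where 12.2% and 7.39% of all genes had one. Astrocyte markers were above 0 for 6 of 6 and 5 of 6 in these comparisons and oligodendrocyte markers for 5 of 6 and 6 of 6, and their part in the list's values was not tested. Fam107a led both, at 283 ± 30.3 CPM in females with small against 233 ± 18.02 CPM in females with large social network sizes in the hippocampus (0.28 ± 0.07, adjusted p = 0.249) and 0.23 ± 0.08 in the hypothalamus. In males, 15 and 20 of 26 were above 0 in the hippocampus and hypothalamus (medians of all genes -0.002 and 0.009), with 0 and 1 at an unadjusted p under 0.05. Counts above 0 in the prefrontal cortex are not given here for either sex, so these counts do not describe all 3 regions. Females against males, 4, 9 and 6 of 26 were above 0 in the prefrontal cortex, hippocampus and hypothalamus (medians of all genes -0.001, -0.002 and -0.005). An unadjusted p under 0.05 was found for 6, 1 and 5 of them (all genes 4.98%, 5.99% and 6.79%). Lcn2, a secreted iron-binding protein, had the smallest p in the prefrontal cortex (2.04 ± 1.27 against 6.31 ± 5.49 CPM, log2 fold change -1.69 ± 0.43, adjusted p = 0.25). The males compared include animal 7, of small social network size. It was the highest animal for 12, 18 and 14 of these 26 genes in the prefrontal cortex, hippocampus and hypothalamus. Its part in the counts of males and of females against males was not tested. Genes of 1 list share animals and are not independent, and the list was chosen with earlier results of these data known.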

How the data were processed

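RNA from punches of 3 brain regions had been made into libraries with the NEBNext Ultra kit. Reads were cleaned of adapters and poor bases by the authors, aligned to GRCm38 with STAR and summed per gene with HTSeq. The deposited values are raw counts for 35275 genes. The annotation release and the strand setting are not given in the sources used here. Symbols came from GENCODE vM21, which held 34490 of these identifiers.

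Counts were tested with edgeR 4.0.16 in R 4.3.3 (filterByExpr with a minimum count of 10 and a minimum total of 15, TMM, quasi-likelihood test, Benjamini-Hochberg adjustment, threshold 0.05). Small and large social network sizes were compared within each sex and region, and regions in 1 fit over 86 libraries with the animal as a block. Agreement between regions used Pearson's r of log2 CPM (prior count 2) over all genes, with 100000 permutations for members. Scripts used Python 3.11.15 with scipy 1.17.1 and matplotlib 3.10.9, and were tested on simulated counts.

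That numbers pair libraries was checked by the correlation, over 17824 genes, of deviations from the mean of each group of region, sex and social network size. Same-numbered libraries had a median of 0.440, 0.418 and 0.440 in the 3 pairs of regions (lowest 0.292), libraries of other numbers -0.013 to -0.018, and 27 of 28, 28 of 28 and 29 of 29 animals matched their own number best.

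The members and lists were chosen with earlier results of these data known. Named are all members, in each list the genes with an adjusted p under 0.05 (at most 5, or the 1 with the smallest p), and the 5 genes most like Fkbp5, Sgk1 and Tsc22d3. Gene counts summed to 33711824 to 81865801 per library, which leaves counting error small for all members but Crhr2. Alternatives were DESeq2 1.42.0 (size factors and Wald test), other filters, all 4 groups in 1 fit, no block, each sex alone, group-centred values and single animals left out. Coordinates of Nr3c1 are not reported here. RefSeq promoters were matched by symbol for 8 of 10 members.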

Additional observations from a re-analysis of the deposited data

Results flagged for a closer look

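Within groups of 7 or 8 animals, a library far from the others by Dixon's criterion was found in 15 of 120 combinations of member, region and group, where chance gives about 1 in 20. Animal 7 accounted for 9 of them. Among the males with small social network sizes, it was the highest in the prefrontal cortex for Fkbp5 (73.8 CPM, others 16.9 to 27.9), Sgk1 (142 CPM, others 67.5 to 95.1) and Sult1a1 (31.2 CPM, others 6.07 to 10.01). In the hippocampus it was the highest for Fkbp5 (73.3 CPM, others 24.1 to 36.5), Sgk1 (166 CPM, others 59.9 to 95.2) and Sult1a1 (31.97 CPM, others 7.82 to 10.3). In the hypothalamus the same held for Fkbp5 (70.4 CPM, others 25.4 to 31.7), Sgk1 (129.5 CPM, others 38.8 to 74.0) and Sult1a1 (24.5 CPM, others 6.62 to 10.9).

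Of the other 6, Crhr1 gave 4. Among males with small social network sizes, animal 15 was the lowest for Crhr1 in the prefrontal cortex (23.2 CPM, others 26.9 to 30.1). Animal 30, a male with a large social network size, was the highest for Crhr1 in the hypothalamus (12.5 CPM, others 8.90 to 10.3) and in the hippocampus (20.2 CPM, others 15.2 to 17.2). Animal 23, a female with a small social network size, was the highest for Crhr1 in the hippocampus (30.2 CPM, others 14.96 to 21.2). Fkbp5 was the highest in the hypothalamus of animal 4 among females with small social network sizes (38.7 CPM, others 25.2 to 29.9). Zbtb16 was the lowest in the hippocampus of animal 24 among males with large social network sizes (44.6 CPM, others 58.2 to 65.9).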

How the results depend on the processing

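Of the 30 differences of members between regions, all kept direction and call with DESeq2's size factors or Wald test, with both other filters, without the hypothalamus of animal 19 (the lowest in RNA integrity, per the study) and without animal 7. Without the replicate block, 4 of the 30 calls were lost, no member gained one, 14363, 13192 and 12255 genes were called in place of 15258, 14333 and 13519, and Sgk1 in the hippocampus against the prefrontal cortex turned to 0.0084. In females alone Sgk1 there was 0.029, and in males alone Sult1a1 (hypothalamus against prefrontal cortex) was -0.0068 and Tsc22d3 (hypothalamus against hippocampus) -0.0059. None of these values with a changed sign was called. Each sex alone also lost calls, Sult1a1 in the hypothalamus against the hippocampus in females (-0.09, adjusted p = 0.169) and Zbtb16 in the hippocampus against the prefrontal cortex in females (adjusted p = 0.087) and in males (0.110).

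The number of genes called for social network size depended on the test. With the DESeq2 Wald test it was 74, 95 and 43 in females (2, 0 and 1 with edgeR, in the prefrontal cortex, hippocampus and hypothalamus), where 1 member was called, and 2 and 1 in the prefrontal cortex and hypothalamus of males (0 and 0). With all genes with at least 1 count it was 6, 1 and 3 in females. With at least 10 counts in every library it was 5 in the prefrontal cortex of females. With all 4 groups in 1 fit it was 4 and 0 in the prefrontal cortex and hypothalamus of females and 1 in the prefrontal cortex of males. For the difference between the sexes, the Wald test called 30 and 1 genes in the prefrontal cortex and hippocampus (0 and 0). For females against males it called 29, 31 and 40 (18, 19 and 22), and with at least 10 counts in every library edgeR called 10 in the prefrontal cortex and also 10 in the hypothalamus. The cause was not tested. Leaving out 1 animal at a time, the genes called of females ran from 0 to 5 in the prefrontal cortex and from 0 to 14 in the hypothalamus (14 without animal 5), and those of males from 0 to 1 in the prefrontal cortex.

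In males, leaving out 1 animal moved the log2 fold change of Fkbp5 between -0.10 and 0.31, -0.15 and 0.14, and -0.23 and 0.10 in the prefrontal cortex, hippocampus and hypothalamus. For Sgk1 the limits were -0.15 and 0.088, -0.16 and 0.15, and -0.17 and 0.22, and for Sult1a1 -0.091 and 0.45, -0.11 and 0.37, and 0.04 and 0.51. The lowest of each came without animal 7.

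Agreement between regions was called for 1941, 2770 and 2011 genes and 2, 3 and 1 members in females alone, and for 1948, 1880 and 2601 genes in males alone (5477, 6198 and 5539 genes and 4, 7 and 4 members in all animals). Each sex alone has fewer animals. Calls lost in females alone beside those of Fkbp5 were Sgk1 (hypothalamus and prefrontal cortex), Nr3c1, Hsd11b1 and Sult1a1 (hypothalamus and hippocampus) and Sult1a1 and Zbtb16 (hippocampus and prefrontal cortex), with r of 0.508 to 0.644, and in males alone Tsc22d3 (hypothalamus and hippocampus, 0.495) and Zbtb16 (hippocampus and prefrontal cortex, 0.639). Values near 0 changed sign. In hypothalamus and prefrontal cortex, r of Nr3c2 was -0.186 in females and from -0.010 to 0.152 with 1 animal left out, and r of Crhr2 was 0.1 in females, 0.011 with group-centred values and from -0.088 to 0.031 with 1 left out. In hypothalamus and hippocampus, Nr3c2 was at -0.127 in males and from -0.066 to 0.427 with 1 left out. In hippocampus and prefrontal cortex, Nr3c1 was at -0.0041 in females, Crhr1 at -0.0438 in males and from -0.101 to 0.145 with 1 left out, and Crhr2 at 0.0275 in males.

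Among the members, depth limits only Crhr2, with 26 to 76 counts per library in the prefrontal cortex.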
